A study of Macaca mulatta with 144 samples.

Results

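The serum miRNA time course of the NHPs that received 7.0 Gy of total body irradiation (TBI) comprised 24 of the 144 libraries of the series, from 6 of its 36 rhesus macaques (Macaca mulatta). Members were all libraries whose label gave a radiation dose (RD) of 7 Gy. Each of the 6 NHPs contributed serum before irradiation (Preradiation) and on days 1, 2 and 6 after exposure to gamma radiation from a cobalt source, so that every irradiated sample was set against the Preradiation sample of the same animal. By the labels 5 animals were female and 1 was male, 4 died (Deceased) and 2 survived. The NHPs were naive young to adult animals, whose ages were given only as a range for the whole study, and supportive care was given, with every sample drawn before any transfusion. No unirradiated animals are analysed here, so a change with time since irradiation cannot be told apart from a change with repeated bleeding or handling. 1 serum library was made per animal and time, so p-values measure the spread between animals and between libraries together.

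miRNAs are short RNAs that base-pair with messenger RNAs and lower their translation or stability. Cells release them into blood inside vesicles, bound to proteins or through lysis, and serum therefore holds a mixture that is led by products of red blood cells, with lesser amounts from leukocytes, platelets, endothelium and solid organs. Total body irradiation is known for the loss of lymphocytes and marrow precursors within days, and for injury to the lining of the gut. In bulk serum, fewer releasing cells and less release per cell cannot be told apart.

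The Preradiation library of animal RA2265F held the same 82153 counts, miRNA by miRNA, as the day 1 library of an animal at 8.0 Gy, so which of the 2 samples it came from could not be settled, and every result of the test at 7.0 Gy was repeated without it. The day 6 library of RA2021F held 11174 counts, the lowest total of the series, with 75 miRNAs detected, and results were repeated without it as well. Totals ran between 82153 and 2921832 counts before irradiation (median 254140), 43060 and 577050 on day 1 (median 172248), 56280 and 1288538 on day 2 (median 315204), and up to 1378871 on day 6 (median 133736). Intervals and limits given here cover counting error only.

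The libraries had the composition of serum. miR-486-5p, an erythroid miRNA, took 41.9% to 88.4% of the counts of a library (median 69.1%), followed by miR-92a-3p with a median of 5.88% and miR-10b-5p with a median of 4.57%. Some miRNAs of solid organs were scarce and others were not. miR-122a-5p of liver had 101 counts over the 24 libraries, miR-206 of skeletal muscle and miR-122a-3p had 0 counts in all 24 libraries, and miR-124a-3p of neurons and miR-1-3p of muscle had 1 count in total each. Against these, miR-148a-3p of the liver list had 122127 counts and miR-192-5p of the intestinal and renal list 33799. miR-375 of the pancreas list had 5323, and all 3 were detected in all 24 libraries. The lymphocyte miRNA miR-150-5p and the myeloid miRNA miR-223 were detected in all 24 libraries.

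The share of miR-486-5p ran from 63.3% to 88.0% on day 1 (median 80.8%), against 58.1% to 84.0% before irradiation (median 63.7%). The share of miR-486-5p was higher on day 1 in each of the 6 animals, by 12.3 ± 6.38 percentage points (SD, n = 6), although the ranges of the 2 times overlapped. The exact two-sided sign-flip test gave p = 0.0313, the smallest value 6 animals allow, and an adjusted p of 0.375 over the 12 comparisons of library measures. By day 2 the mean difference was 2.08 percentage points and by day 6 it was -2.03. At the other 5 RDs the share was higher on day 1 in 12 of 30 animals, with a mean change of -3.10 percentage points, and the difference of 15.4 percentage points between 7.0 Gy and the other RDs had p = 0.0663 in a permutation test that was added after the values had been seen.

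Fewer miRNAs were detected on day 1 in 5 of 6 animals (138 to 317, median 202, against 215 to 403, median 273, before irradiation, exact sign-flip p = 0.0625). The TMM factor, by which edgeR corrects a library for its composition, was lower on day 1 in all 6 animals, with a mean difference of -0.91 on the log2 scale. The median log2 (Fold change) of all 290 miRNAs tested on day 1 was -0.25 with TMM factors and -1.07 when counts were scaled to library totals alone. Levels below are TMM-normalized CPM, counts scaled to a common library size, so that they need not add up to the same sum in every library, and changes of single animals are differences in log2(CPM + 1). A haemolysis score (log2 miR-451 less log2 miR-23a-3p, since red blood cells shed the first when they lyse) was higher on day 1 in 4 of 6 animals by 1.23 ± 1.31 (SD, n = 6, exact sign-flip p = 0.125).

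**Figure D1:**
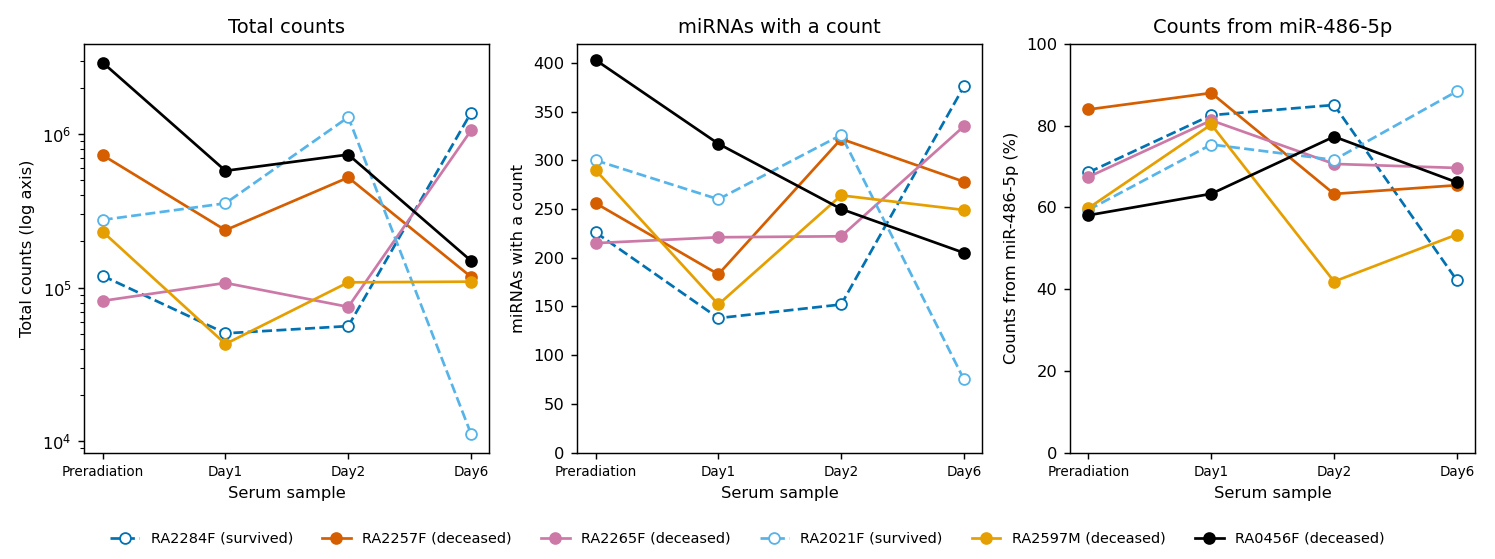
Total counts (log axis), number of miRNAs with a count and percent of counts from miR-486-5p in the 24 serum libraries, by sampling time, with 1 line per animal (dashed lines and open symbols for the 2 survivors). The miR-486-5p share of each of the 6 animals is higher on day 1 than before irradiation, and the day 6 library of RA2021F has the lowest total, 11174 counts.

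On day 1, miR-375 rose, and it was the single miRNA that passed an adjusted p of 0.05 among 290 tested (0.345% higher, 0% lower). miR-375 is an miRNA of pancreatic islet cells that endocrine cells of the gut lining also make, and the table lists it without an arm. Its level lay between 350.2 and 3169 CPM on day 1 (median 1793), against 29.6 to 417 CPM before irradiation (median 83.0). Every animal was higher on day 1, but the lowest day 1 value fell below the highest Preradiation value, so the groups overlapped. The log2 (Fold change) was 3.36 (SE 0.63, adjusted p = 0.000716, edgeR quasi-likelihood test with Benjamini-Hochberg adjustment), or 10.2-fold.

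The rise was uneven among animals. The changes on day 1 were 6.70 in RA2257F, 6.00 in RA2597M, 4.78 in RA2265F and 4.20 in RA0456F, against 0.54 in RA2021F and 0.20 in RA2284F. The first 4 animals are those labelled Deceased and the other 2 those labelled Survived, an arrangement that was noticed in the values and had p = 0.133 in an exact two-sided permutation test, the smallest value that 4 against 2 animals allow. On day 1 the 4 deceased animals had 1504 to 3169 CPM and the 2 survivors 350.2 and 478 CPM. Before irradiation the order was the opposite, with 29.6 to 112 CPM in the deceased animals and 240 and 417 CPM in the survivors, so the 2 sets of animals differed at both times. The Preradiation value of RA2265F, 53.9 CPM, came from the library of unsettled origin. Its change of 4.78 and the split by survival given here include that library.

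Among the 30 animals of the other RDs, the change of miR-375 on day 1 averaged 2.04 in 17 deceased animals (range -6.70 to 7.10) and 3.47 in 13 survivors (range -0.55 to 6.67), with p = 0.334 in a permutation test that shuffled survival within RD.

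On day 2 miR-375 ran from 33.6 to 688 CPM (median 406), where the log2 (Fold change) to Preradiation was 1.25 (SE 0.60, adjusted p = 0.588) and 5 of 6 animals were higher. On day 6 it ran from 225 to 504 CPM (median 341), at a log2 (Fold change) of 1.13 (adjusted p = 0.725, SE 0.60) and with 4 of 6 animals higher. Between day 6 and day 1 the log2 (Fold change) was -2.23 (SE 0.57, adjusted p = 0.0739), and all 6 animals were lower on day 6. The day 6 value of RA2021F rested on 1 count and the day 2 value of RA2284F also on 1 count.

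The call on day 1 held in 17 of the 19 settings tried, the reported one included. Without the Preradiation library of RA2265F the log2 (Fold change) was 3.03 (adjusted p = 0.0105), and without both doubtful libraries it was 3.16 (adjusted p = 0.0159). The share of miR-486-5p and the haemolysis score were also higher on day 1, and with the haemolysis score as a covariate the value for miR-375 was 3.45 (adjusted p = 0.0249). Scaled to library totals alone it was 2.28 (adjusted p = 0.206), with higher values in 4 of 6 animals, those labelled Deceased, and in the fit with all 144 libraries it was 3.53 (adjusted p = 0.0508). That fit was also run without both identical libraries, beside the 19 settings, and gave 3.21 (adjusted p = 0.306).

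**Figure D2:**
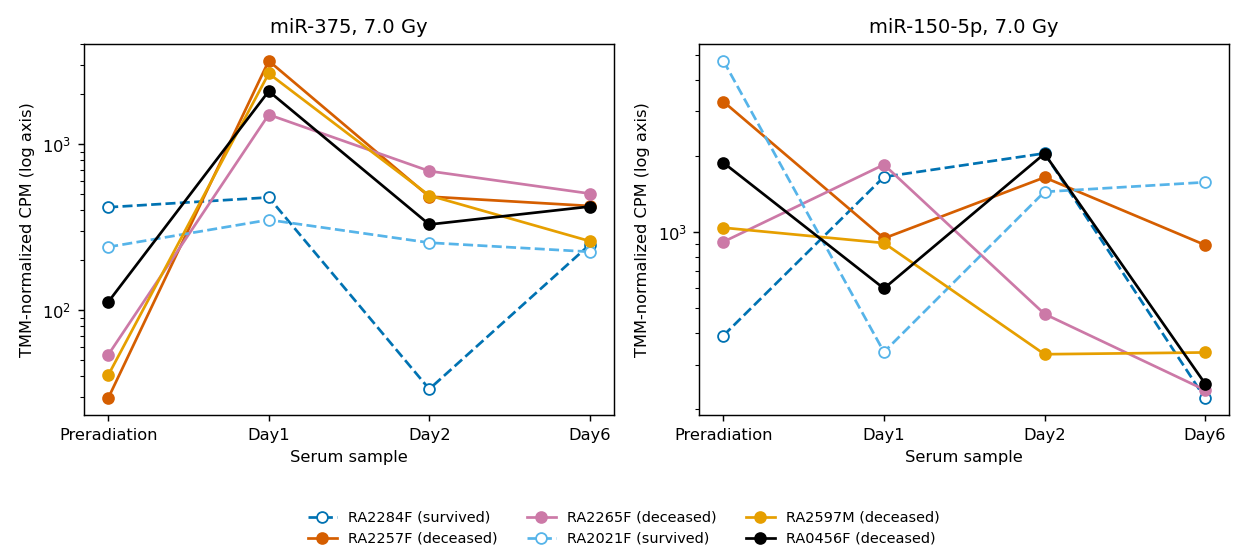
TMM-normalized CPM (log axes) of miR-375 and miR-150-5p in the 6 animals at 7.0 Gy at each of the 4 sampling times, with dashed lines and open symbols for the 2 survivors. In 4 animals miR-375 climbs to between 1504 and 3169 CPM on day 1, while the survivors stay at 350.2 and 478 CPM; miR-150-5p is lower on day 6 than before irradiation in each animal.

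The other pancreas miRNAs of the list, miR-216a, miR-216b and miR-217, which acinar cells make, fell under the filter on low counts and were not part of the test. miR-216a-5p had 4, 2, 1 and 12 counts on day 1 in RA2257F, RA2265F, RA2597M and RA0456F and 0 counts in the survivors, against 0 counts in all 6 Preradiation libraries. A count of 0 allowed a level of up to 59.4 CPM of the library total in the survivor RA2284F and of up to 8.46 CPM in RA2021F on day 1. Over the 6 Preradiation libraries together it allowed up to 0.688 CPM, and up to 2.08 CPM without RA0456F, the deepest of them. miR-216a-5p reached 16.9 to 23.2 CPM of the library total in the 4 animals with a count, a level under the limit for RA2284F and above that for RA2021F. In RA2265F the day 1 level of 18.6 CPM was also under its own Preradiation limit of 36.5 CPM, so no difference was detectable in that animal at this depth. On day 2 it had 8 counts over 3 animals and on day 6 it had 2 counts in 1 animal. It was called higher on day 1 only in the fit without a filter on low counts. miR-216b and miR-217 had at most 3 counts in any time group. miR-133a, an miRNA of striated muscle, ran from 3.40 to 117 CPM on day 1 (median 85.1), against 0 to 131 CPM before irradiation (median 6.23). It was higher in 5 of 6 animals with overlapping groups, and its log2 (Fold change) was 2.06 (SE 0.94, adjusted p = 0.425).

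When the 3 days were tested together, 4 miRNAs passed (1.38% of 290): miR-375 (adjusted p = 0.000741), miR-122a-5p (0.0176), miR-149-5p (0.0176) and miR-548j-3p (0.0268). The last 3 rested on few counts. miR-122a-5p, the hepatocyte miRNA, summed to 56 counts in the Preradiation libraries, then to 1, 0 and 44 counts at the later times. Of the 56, 27 came from RA2284F and 28 from RA0456F, and a sum of 0 on day 2 allowed up to 1.08 CPM over the 6 libraries, 2.00 CPM without RA2021F, and 53.3 CPM in RA2284F alone. miR-149-5p summed to 5, 0, 44 and 4 counts over the 4 times in order, with 34 of the 44 in RA0456F. miR-548j-3p, of a primate family, summed to 39, 19, 1 and 38 counts. With DESeq2 the only miRNA called over the 3 days was miR-375.

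On day 1, 7 miRNAs were lower in all 6 animals (2.41% of those tested) and 3 were higher (1.03%), while 31 had an unadjusted p under 0.05 (10.7%). Of these 31, 24 were lower (8.28%). miR-142-3p, made throughout the blood cell lineages, ran from 0 to 58.6 CPM on day 1 (median 36.7), against 8.69 to 286 CPM before irradiation (median 132). All animals had a lower value on day 1 with overlapping groups, at a log2 (Fold change) of -1.85 (adjusted p = 0.318, SE 0.63). miR-598-3p ran from 0 to 7.33 CPM on day 1 (median 0), against 7.70 to 39.9 CPM before irradiation (median 20.2). It had a count in 1 of 6 libraries on day 1, and it was the only miRNA tested whose groups did not overlap in that direction (0.345%), at a log2 (Fold change) of -2.81 (adjusted p = 0.318, SE 0.99). Its only day 1 counts, 5, were in RA0456F, and without that animal the fitted value was -6.11 (adjusted p = 0.331). In RA2284F, RA2265F and RA2597M the 0 counts on day 1 allowed up to 59.4, 27.9 and 69.7 CPM of the library total. Those limits lay above their TMM-normalized Preradiation levels of 17.4, 7.70 and 21.5 CPM, so no difference was detectable in them at this depth. RA2257F had 7 of 729122 counts before irradiation, a share under its day 1 limit of 12.7 CPM of the library total. No difference was detectable in RA2257F either. In RA2021F the limit of 8.46 CPM lay below its Preradiation level of 19.7 CPM.

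None of the other miRNAs with 1 sign in all 6 animals on day 1 passed, apart from miR-375. let-7f-5p, of the let-7 family that restrains growth genes, ran from 673 to 3126 CPM on day 1 (median 1730), against 1926 to 6410 CPM before irradiation (median 3491). The changes lay close together, between -1.52 and -0.38, at a log2 (Fold change) of -1.08 (adjusted p = 0.318, SE 0.39). miR-299-3p and miR-411-5p, both of the imprinted DLK1-DIO3 cluster, had log2 (Fold change) values of -1.40 (SE 0.59) and -1.06 (SE 0.44), each with an adjusted p of 0.418. miR-486-5p had a value of 1.17 (SE 0.61, adjusted p = 0.454) and miR-1180-3p a value of 1.08 (SE 0.66, adjusted p = 0.498), both higher on day 1 in all 6 animals. The last of the 7 that were lower in all 6 were miR-26a-5p at -0.71 (SE 0.37, adjusted p = 0.454) and miR-199a-3p at -0.48 (SE 0.41, adjusted p = 0.726). By library totals alone the value for miR-486-5p was 0.25, and miR-1180-3p was lower on day 1 in RA2257F, RA2265F and RA0456F. In RA2284F miR-1180-3p had 1 count on day 1 against 0 before irradiation.

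On day 2 no miRNA passed (0% higher, 0% lower), 21 had an unadjusted p under 0.05 (7.24%, with 3.45% higher and 3.79% lower), and DESeq2 called none either. let-7b-3p, the passenger strand of let-7b, ran from 20.9 to 40.5 CPM on day 2 (median 31.2), against 0 to 26.1 CPM before irradiation (median 9.16). It was higher in all 6 animals with overlapping groups, at a log2 (Fold change) of 2.07 (adjusted p = 0.362, SE 0.78), and it had at most 30 counts in a library on day 2. By library totals alone it was lower on day 2 in RA2284F and RA0456F. RA2284F had 3 of 119601 counts before irradiation and 1 of 56280 on day 2, and RA0456F had 55 of 2921832 and 10 of 735975. miR-17-3p, the passenger strand of miR-17, was the other miRNA higher in all 6 animals (0.69% of those tested), at a log2 (Fold change) of 0.88 (adjusted p = 0.91, SE 0.66).

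4 miRNAs were lower in all 6 animals on day 2 (1.38%). miR-331-3p had the smallest p among them, with 0 to 26.7 CPM on day 2 (median 5.27), against 14.3 to 41.4 CPM before irradiation (median 17.0). A count was present in 4 of 6 libraries on day 2 and in 6 of 6 before irradiation, and the log2 (Fold change) was -2.12 (SE 0.85, adjusted p = 0.362). In RA2284F 0 counts on day 2 allowed up to 53.3 CPM of the library total. That limit lay above its Preradiation level of 17.4 CPM, so no difference was detectable there at this depth. RA2265F had 2 counts in its Preradiation library of unsettled origin and 1 on day 2. The lymphocyte miRNA miR-342-3p had a log2 (Fold change) of -1.09 (adjusted p = 0.796, SE 0.69). miR-136 and miR-323b-3p, of the DLK1-DIO3 cluster, had values of -1.23 (SE 0.69, adjusted p = 0.796) and -0.44 (SE 0.55, adjusted p = 0.943).

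Averaged over days 1, 2 and 6, miR-331-3p changed by -2.59 ± 1.80 on the log2 scale (SD, n = 6), lower in 5 of 6 animals, with an exact two-sided sign-flip p of 0.0625. With a pseudocount of 10 CPM in place of 1 the mean was -1.03. The exception was RA2265F at 0.08, the animal whose Preradiation library duplicated another. miR-331-3p was followed because earlier results of these data had shown it, so these values are a description. Its sums over the 6 libraries were 125 counts before irradiation, 86 of them in RA0456F, and 7, 42 and 47 counts on days 1, 2 and 6. All miRNAs together had 4360988 counts before irradiation and 1369590, 2786284 and 2823821 counts on those days, so these sums are not on a common scale.

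On day 6 no miRNA passed (0% higher, 0% lower), 18 had an unadjusted p under 0.05 (6.21%, with 3.45% higher and 2.76% lower), and DESeq2 called none either. The smallest p belonged to miR-150-5p, an miRNA of mature lymphocytes that represses the transcription factor MYB. It ran from 221 to 1575 CPM on day 6 (median 294), against 391 to 4747 CPM before irradiation (median 1461). Every animal was lower on day 6, by 0.82 to 2.89 on the log2 scale, with overlapping groups, and the log2 (Fold change) was -1.97 (SE 0.52, adjusted p = 0.108). Without a filter on low counts the adjusted p was 0.0169 on the same counts, and by library totals alone 5 of 6 animals were lower. The partner arm, miR-150-3p, ran from 0 to 37.4 CPM on day 6 (median 22.4), against 7.17 to 60.8 CPM before irradiation (median 24.3). It was higher on day 6 in RA2257F, RA2265F, RA2597M and RA0456F and lower in RA2284F and RA2021F.

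On day 1 miR-150-5p had a log2 (Fold change) of -0.55 (adjusted p = 0.759, SE 0.52) and on day 2 of -0.48 (SE 0.50, adjusted p = 0.943), each with 4 of 6 animals lower. Between day 6 and day 1 its value was -1.42 (SE 0.54, adjusted p = 0.362), and no miRNA passed in that comparison (0% higher, 0% lower, 18 at an unadjusted p under 0.05, or 6.21%, of which 3.79% of all were higher and 2.41% lower), where DESeq2 called miR-375 alone.

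6 miRNAs were lower in all 6 animals on day 6 (2.07%) and 1 was higher (0.345%). Beside miR-150-5p, the named ones were miR-136 (log2 (Fold change) -1.23, SE 0.73), miR-197-3p (-0.93, SE 0.58), miR-33a, which lies within a gene of cholesterol control (-1.18, SE 0.83), and miR-671-3p (-0.91, SE 0.66), with adjusted p-values of 0.777 to 0.796. In RA2021F, miR-136, miR-197-3p, miR-33a and miR-671-3p had 0 counts on day 6, where a count of 0 allowed up to 268 CPM of the library total. Their Preradiation levels in that animal were 17.7 to 27.6 CPM, so no difference was detectable there at this depth. The miRNA higher in all 6 was miR-628-3p, at 1.29 (SE 0.99, adjusted p = 0.801) and at most 20 counts in a library on day 6. Its day 6 value in RA2021F, 225 CPM, rested on 1 count. Between day 6 and day 1, where 62.1% of all 290 had a fitted value above 0, let-7e-5p was the 1 miRNA higher in all 6 animals (0.345%), at a log2 (Fold change) of 1.77 (adjusted p = 0.362, SE 0.66). The day 6 value of let-7e-5p in RA2021F also rested on 1 count.

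**Figure D3:**
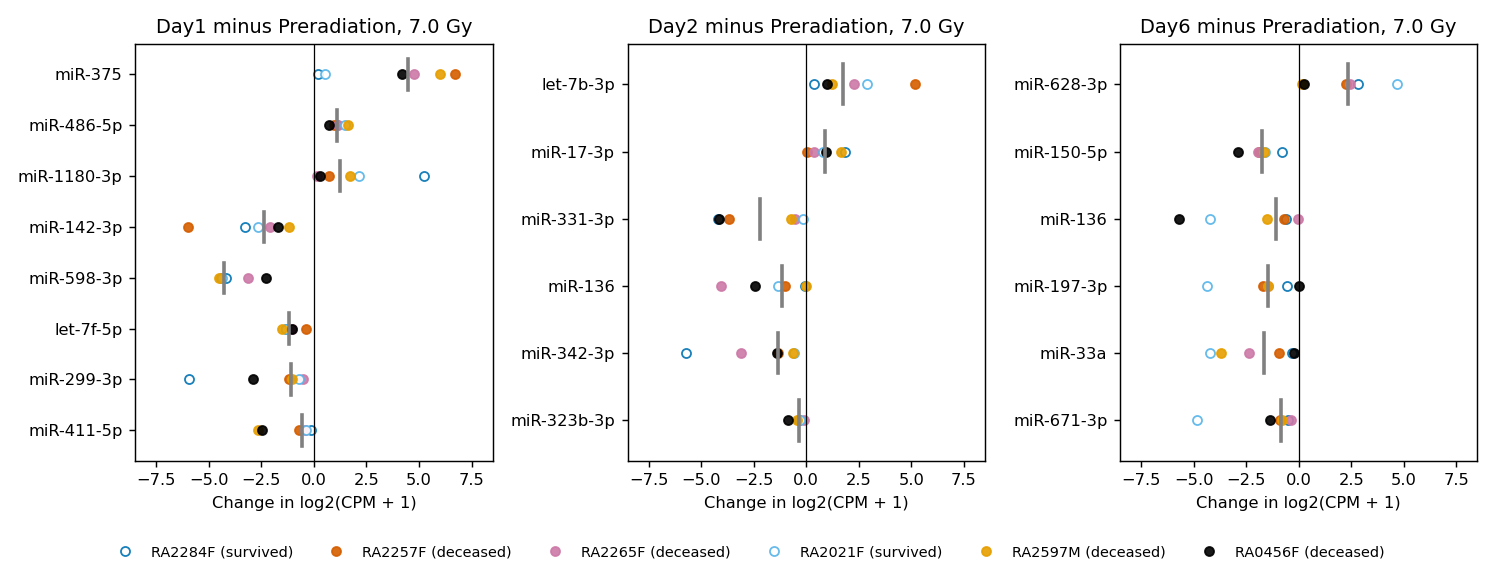
Change in log2(CPM + 1) from Preradiation on days 1, 2 and 6 in each of the 6 animals (open symbols for survivors) and their median (grey bar), for the miRNAs called or with 1 sign in all animals. Only miR-375 on day 1 passed the adjusted test, and its 2 survivors lie at 0.20 and 0.54 while the other 4 animals lie between 4.20 and 6.70.

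Of the p53-responsive miRNAs, 9 of 13 listed were measured well enough to test. None passed on any day. miR-34a-5p, a direct target of p53, had 3 counts before irradiation, all in RA0456F, and 7, 11 and 41 counts on days 1, 2 and 6. On day 6 it was detected in 4 of 6 libraries, with 27 counts in RA2284F and 11 in RA2265F, and had a log2 (Fold change) of 4.03 (adjusted p = 0.27, SE 1.23). Before irradiation 0 counts allowed up to 25.1 CPM of the library total in RA2284F and 36.5 CPM in RA2265F. The day 6 shares, 27 of 1378871 and 11 of 1056734 counts, were under those limits, so no rise was detectable in these animals at this depth. The median log2 (Fold change) of the 9 was -0.23, -0.14 and 0.07 on days 1, 2 and 6, beside -0.25, -0.10 and -0.03 for all 290, and under other scalings and libraries left out the day 6 median ran from -0.02 to 0.19.

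The DLK1-DIO3 region, a large imprinted cluster whose miRNAs are transcribed together, was the largest list examined. Of 81 names listed 44 were tested, and none passed on any day, although miR-654-3p was called lower on day 1 when RA2021F was left out. On day 1 the fitted value was below 0 for 37 of the 44 (61.4% of all 290 were), with a median of -0.77 beside -0.25 for all. On day 2 it was below 0 for 36 of 44 (56.6% of all), with a median of -0.51 beside -0.10, and on day 6 again for 36 of 44 (51.7% of all), with a median of -0.61 beside -0.03. The summed level of the 44 was 1550 to 8994 CPM on day 1 (median 3176), 2990 to 6564 CPM on day 2 (median 4742) and 1575 to 9610 CPM on day 6 (median 2761), against 4529 to 11917 CPM before irradiation (median 6567). It was lower than before irradiation in 5, 6 and 4 of 6 animals on days 1, 2 and 6. As members of 1 cluster they are not independent of each other, and the median stayed between -1.50 and -0.48 on every day under other scalings and without either or both doubtful libraries. At the other RDs the median of the same 44 on day 1 ran from -1.31 at 8.0 Gy to 0.41 at 8.5 Gy, with -0.60 at 7.0 Gy in that fit. The 8.0 Gy group includes the day 1 library identical to that of RA2265F, and without both libraries the medians were -1.65 at 8.0 Gy and -0.75 at 7.0 Gy.

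On day 1, 9 of the 10 red blood cell miRNAs had a fitted value above 0 (38.6% of all 290 did), with a median of 0.43, and none passed. Among them miR-451 had a value of 0.93 (SE 0.44, adjusted p = 0.438). By library totals alone the median of the list was -0.39, so the sign of that list depended on the scaling. The 8 lymphocyte miRNAs had medians of -0.36, -0.44 and -0.43 on days 1, 2 and 6, beside -0.25, -0.10 and -0.03 for all 290. Of the 8, 5, 6 and 7 were below 0 on those days (61.4%, 56.6% and 51.7% of all 290 were). The day 1 count was thus close to the share of all. The 4 myeloid and pan-leukocyte miRNAs had medians of -0.80, -0.30 and -0.53. The summed TMM-normalized level of the 4 was lower than before irradiation in 5, 5 and 6 of 6 animals, and without the day 6 library of RA2021F 5 of 5 animals remained lower on that day. By library totals alone miR-142-5p was higher on day 6 in RA2284F and RA2257F and lower in the other animals. It had 203 of 119601 counts and then 3342 of 1378871 in RA2284F, and 501 of 729122 and then 268 of 117725 in RA2257F. miR-142-5p, the partner arm of miR-142-3p, had log2 (Fold change) values of -0.81 (SE 0.40), -0.49 (SE 0.40) and -1.01 (SE 0.41) on the 3 days, and no miRNA of either leukocyte list passed.

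Among the families, 8 of 9 let-7 members had a fitted value below 0 on day 1 (61.4% of all 290 did), with a median of -0.67 beside -0.25 for all. The let-7 medians were -0.25 and -0.27 on days 2 and 6, beside -0.10 and -0.03 for all. All 4 miR-10 miRNAs, which lie in the HOX gene clusters, were above 0 on each day (38.6%, 43.4% and 48.3% of all 290 were), with medians of 0.80, 0.52 and 0.99. On day 1 the sign did not hold by library totals alone, where the median of the 4 was -0.18. miR-10b-5p had a log2 (Fold change) of 1.52 on day 6 (adjusted p = 0.507, SE 0.56), higher in 4 of 6 animals. The 5 epithelial miRNAs that could be tested, of 8 listed, were above 0 on each day, with medians of 1.09, 0.59 and 0.89. miR-141-3p of the miR-200 family, which maintains epithelial character, had the smallest p among them on day 1, with 0 to 322 CPM (median 125), against 17.7 to 78.2 CPM before irradiation (median 27.5). It was higher in 5 of 6 animals, at a log2 (Fold change) of 1.67 (adjusted p = 0.318, SE 0.61), and RA2284F had 0 counts on that day.

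**Figure D4:**
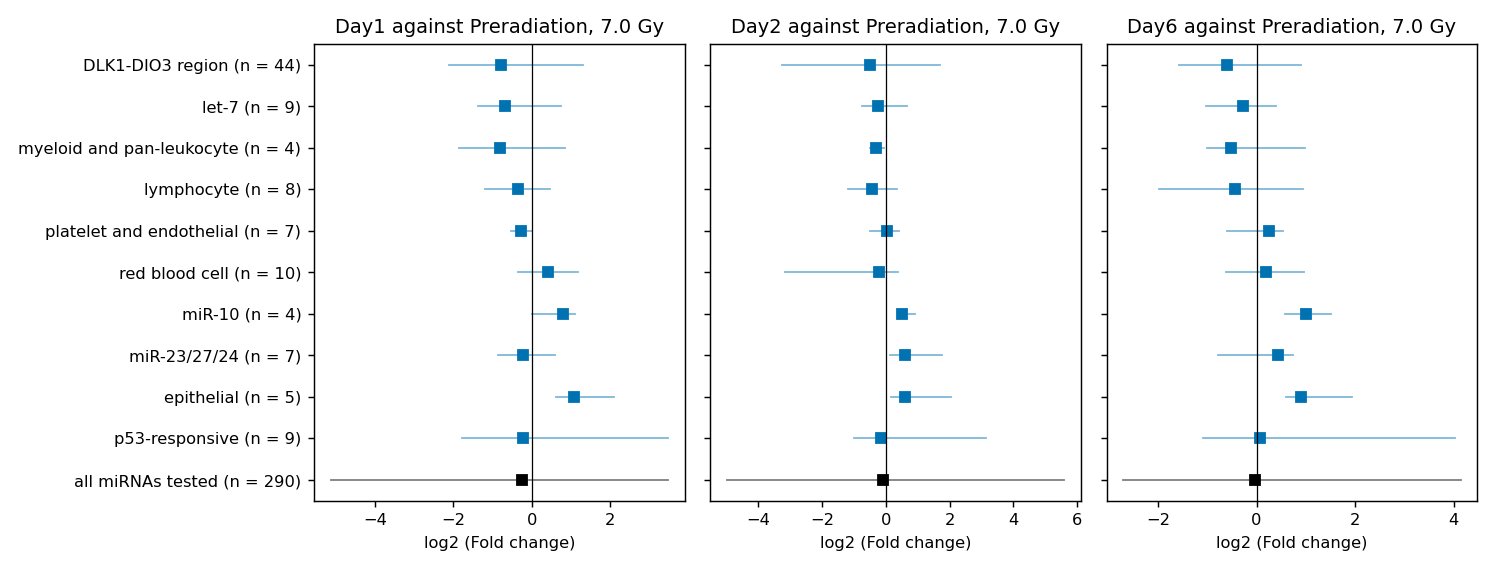
Median (square) and range (line) of the log2 (Fold change) of the tested miRNAs of each list on days 1, 2 and 6 against Preradiation at 7.0 Gy, with all 290 miRNAs in black. The DLK1-DIO3 median lies at -0.77, -0.51 and -0.61 while that of all miRNAs lies at -0.25, -0.10 and -0.03; apart from miR-375, which is in none of the lists drawn, no miRNA passed on a single day.

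Of 11 miRNAs taken from those that the text of the study names as markers of dose or of time, a selection and not its whole marker set, none passed at 7.0 Gy on any day, with medians of 0.04, 0.01 and 0.43. They include miR-331-3p, miR-142-3p, miR-1180-3p and miR-133a, described above. Because the list was chosen in the study on libraries that include these 24, its counts are not independent evidence. The study picked its markers by their slope over doses or over time, some of them in 1 sex only. Tests of single days at 7.0 Gy measure something else and cannot check those slopes. miR-183-5p, of a cluster known from sensory cells, had a log2 (Fold change) of 4.00 on day 2 (adjusted p = 0.334, SE 1.40) and rested on 64 counts in 2 libraries on day 2, against 10 counts in 2 libraries before irradiation. It passed when RA2257F, which held 4 of those 10 counts, was left out. Of 5 miRNAs that the study shared with an earlier, longer list of radiation miRNAs conserved across species, miR-375 passed on day 1. The others were miR-150-5p and miR-133a, described above, miR-215-5p, and miR-30a-5p, with a value of 1.00 on day 6 (SE 0.45, adjusted p = 0.631). None of the 15 network hubs and panel members passed on any day.

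Whether any change was particular to 7.0 Gy was tested by the interaction of day with RD over all 144 libraries. No miRNA passed on day 1, 2 or 6 (0% each), with 16, 10 and 9 of 290 at an unadjusted p under 0.05 (5.52%, 3.45% and 3.1%), and none passed with DESeq2 size factors. The day 1 change of miR-375 was -0.01 relative to the other RDs (SE 0.97, adjusted p = 1.00). The day 2 change of miR-331-3p was -1.93 relative to them (SE 0.91, adjusted p = 0.990), and the day 6 change of miR-150-5p was -0.83 (SE 0.75, adjusted p = 0.994). The smallest adjusted p, 0.253 on day 2, was reached by the low-count miR-548j-3p.

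In the fit that gave each RD its own change, miR-375 on day 1 had a log2 (Fold change) of 4.17 (SE 0.90) at 6.0 Gy, 3.20 (SE 0.85) at 6.5 Gy, 3.53 (SE 0.91) at 7.0 Gy, 3.66 (SE 0.92) at 7.5 Gy, 2.17 (SE 0.80) at 8.0 Gy and 4.22 (SE 0.92) at 8.5 Gy. The values at 6.0, 7.5 and 8.5 Gy passed (adjusted p = 0.0029, 0.0348 and 0.0033), those at 6.5, 7.0 and 8.0 Gy did not (0.0747, 0.0508 and 0.131), and differences between single RDs were not tested. Without both identical libraries the values were 2.53 (SE 0.82, adjusted p = 0.0624) at 8.0 Gy and 3.21 (SE 0.95) at 7.0 Gy. miR-34a-5p on day 6 had 3.96 (SE 1.15) at 7.0 Gy, with values of 0.35 to 2.70 at the other RDs, and passed at none of the 6. miR-331-3p was below 0 on all 3 days at 7.0 and 7.5 Gy and above 0 on all 3 days at 6.5 Gy.

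**Figure D5:**
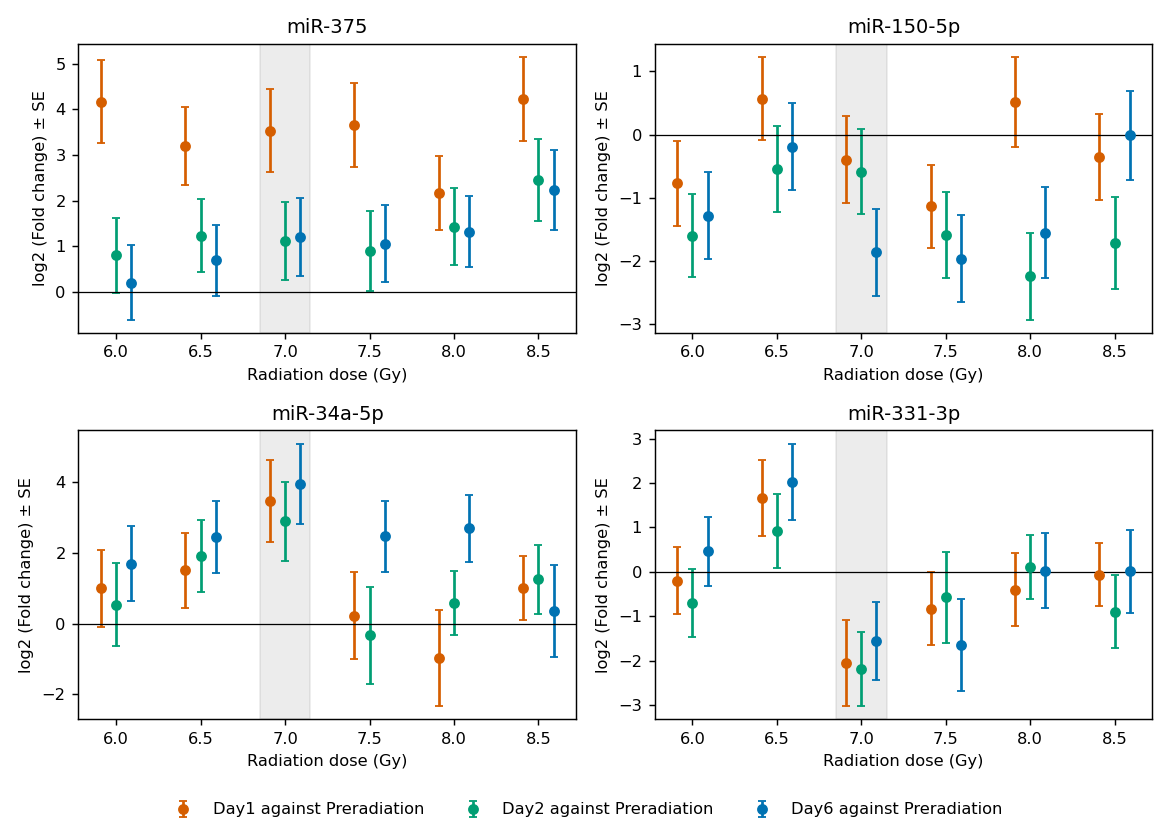
log2 (Fold change) ± SE of miR-375, miR-150-5p, miR-34a-5p and miR-331-3p on days 1, 2 and 6 against Preradiation at each radiation dose in Gy, from the fit of all 144 libraries with 6 animals per dose and 7.0 Gy shaded. miR-375 lies between 2.17 and 4.22 on day 1 at every dose, and miR-331-3p at 7.0 Gy lies between -2.18 and -1.56.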

How the data were processed

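Small RNA of NHP serum was sequenced by the authors after library construction with a TruSeq small RNA kit and demultiplexing with bcl2fastq. The deposited table holds raw counts of reads per mature miRNA, 908 miRNAs by 144 libraries, which the authors obtained by mapping to miRBase in a commercial workbench. How reads with several matches were shared is not given in the sources used here, so near-identical family members may share reads. Reads carried no molecular identifiers.

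The counts at 7.0 Gy were fitted with edgeR 4.0.16 (R 4.3.3, TMM normalization, quasi-likelihood test, animal and time as factors), with Benjamini-Hochberg adjustment over 290 miRNAs with at least 1 read in 40% or more of the 144 libraries and a threshold of 0.05. CPM used the TMM factors, and changes of single animals used a pseudocount of 1 CPM. The comparison with the other RDs used all 144 libraries with animal as a block. Library measures were compared with exact two-sided sign-flip tests over animals, by enumerating all signs, with p-values adjusted over 12 comparisons. Pairing came from the animal codes in the labels. Deviations from group means correlated at 0.043 on average over 36 pairs from the same animal and at -0.0052 over 180 pairs from other animals. The day 1 test at 7.0 Gy was also run on simulated counts with known changes.

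The miRNAs named in the text were those called in a comparison, up to 5 per direction and day with the smallest p among those with 1 sign in all 6 animals, and members of the lists. Members and lists were chosen with earlier results of these data known. miR-216a-5p, miR-34a-5p, miR-141-3p, miR-10b-5p, miR-183-5p and the split by survival were singled out after values had been seen. Alternatives were DESeq2 1.42.0, its size factors, other filters, no block, a haemolysis covariate, another pseudocount of 10 CPM, all 144 libraries in the fit, and leaving out libraries or animals. Scaling to totals alone, leaving out both doubtful libraries and leaving out both identical libraries in the fit by RD were added after seeing the data.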

Additional observations from a re-analysis of the deposited data

Results flagged for a closer look

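In 48 sets of 6 animals the most extreme change was compared with the others by Dixon's criterion, which chance meets in about 1 of 20 groups, and 5 sets met it. All 5 concerned miRNAs of low counts. miR-671-3p on day 6 changed by -4.84 in RA2021F, the library of 11174 counts, with -1.37 as the nearest other animal. miR-122a-5p changed by -7.88 in RA2284F both on day 1, with -1.57 as the nearest other value, and on day 2, with -2.68 as the nearest, since RA2284F had 27 counts before irradiation and 0 on those days. miR-149-5p changed by -0.97 in RA0456F on day 1, where the other animals had 0, and by 3.89 in RA0456F on day 6 although it had 3 counts there, with 1.06 as the nearest other animal.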

How the results depend on the processing

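Of the comparisons, the count of calls on day 1 (1) was 2 without a filter on low counts, 0 with all 144 libraries in the fit, 0 with total counts alone, and 1 to 2 when an animal was left out. The count on day 2 (0) was 0 to 1 when an animal was left out, with miR-183-5p called without RA2257F, and the count on day 6 (0) was 1 without a filter, miR-150-5p. Over the 3 days together (4) it was 9 without a filter, 2 with a filter at 60% of the 144 libraries, 2 with one at 40% of the 24 libraries, 2 with all 144 libraries, 1 with DESeq2, 1 with total counts alone, 1 without the day 6 library of RA2021F, 2 without both doubtful libraries, and 1 to 6 when an animal was left out, with 1 left without RA2021F and 1 without RA0456F. Between day 6 and day 1 (0) it was 1 with DESeq2, 2 without a filter and 0 to 2 when an animal was left out, and for the interaction with RD on day 6 (0) it was 1 without a filter. The filters left 509, 223 and 269 miRNAs to test in place of 290, and the cause of the other changes was not tested. The mean of miR-331-3p was -2.56 with DESeq2 size factors (exact p = 0.0313), -1.03 with a pseudocount of 10 CPM, and -3.12 to -2.14 when an animal was left out. Without the replicate block that pairs samples by animal, 1 miRNA was called on day 1 and 3 over the 3 days, and miR-548j-3p was lost (adjusted p = 0.0826); the block changed no other call. Among library measures, the difference in miRNAs detected on day 6 (-28.7) was 10.6 without RA2021F or its day 6 library, and -64.4 to 10.6 over animals left out. The miR-486-5p share on day 2 was -1.35 to 6.63 and on day 6 -8.24 to 2.85 percentage points, and the haemolysis difference on day 2 was 0.058 without the Preradiation library of RA2265F and -0.61 to 0.058 over animals left out. With totals as low as 11174 counts, miRNAs at up to 268 CPM could go undetected in the shallowest library.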
